A study of Mus musculus with 10 samples.

Results

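Matricellular proteins are secreted into the extracellular matrix but act mainly as signals and modulators rather than as its scaffold, and fibronectin is the multidomain glycoprotein whose fibrils carry many of them. Of the 36047 genes summed from the deposited transcript values, 9 were chosen by name as this group: the thrombospondin genes Thbs1, Thbs2 and Thbs3, the tenascin C gene Tnc, the periostin gene Postn, the transforming growth factor beta induced gene Tgfbi, the osteonectin gene Sparc, its relative Sparcl1, and the fibronectin gene Fn1. All 9 passed the filter on low counts and are among the 13362 genes tested. The study sequenced poly-A RNA of hepatic stellate cells, the vitamin A-storing cells beside the liver sinusoids, isolated in the quiescent state from male C57BL/6 mice. After 5 h in culture the cells spent 4 h in starving medium, 5 libraries with recombinant mouse amphiregulin (Areg, which binds the receptor for epidermal growth factor) at 500 ng/mL and 5 libraries with control treatment. The comparison asks how the transcripts of these genes differed after that time with Areg.

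In injured liver, stellate cells that leave quiescence lay down fibronectin early, and later matrix builds on its fibrils. Fibronectin binds cells through integrins, chiefly the alpha5beta1 receptor, while thrombospondin 1 can release transforming growth factor beta from its latent complex and tenascin C loosens the adhesion of cells to fibronectin. Fn1 and Tnc pre-mRNAs are alternatively spliced, so that extra fibronectin type III repeats are present in some of their proteins and absent from others.

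The libraries held 14365027 to 20057962 estimated counts in the Areg group and 10125184 to 17566891 in the control group. Whether each library is its own animal or culture is not said in the labels, so p-values speak only for the spread among these 10 libraries, and that spread may be technical. The first principal component set controls 3 and 4 (46.6 and 28.6) away from the remaining 8 libraries (-16.5 to 0.455), and results that move without them are given below. Stellate cell markers were present, led by Ecm1, but the markers of sinusoidal endothelial cells summed to 3381 to 3469 TPM in Areg libraries and 3385 to 3776 TPM in controls. Those of hepatocytes summed to 1244 to 1533 and 1192 to 1801 TPM and those of macrophages to 534 to 591 and 558 to 610 TPM, Areg first in each pair. In such bulk RNA, fewer cells of a type and less RNA per cell cannot be told apart.

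With Areg, Thbs1 and Tnc rose and Sparc, Tgfbi and Fn1 fell. The other 4 genes, Thbs2, Thbs3, Postn and Sparcl1, did not pass the test. The rises were 1.51-fold for Thbs1 and 1.36-fold for Tnc, and the 3 genes that fell reached 0.834 to 0.874 of the control level. Thus 5 of 9 genes were called at an edgeR adjusted p under 0.05, where 16.7% of all tested genes were called, 8.34% higher and 8.32% lower. The same 5 genes had no overlap between the groups in CPM, as had 14.7% of all tested genes. The median log2 fold change (Areg minus control) was -0.11 over the 9 genes and -0.01 over all tested genes, and the median absolute log2 fold change was 0.19 and 0.14.

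**Figure D1:**
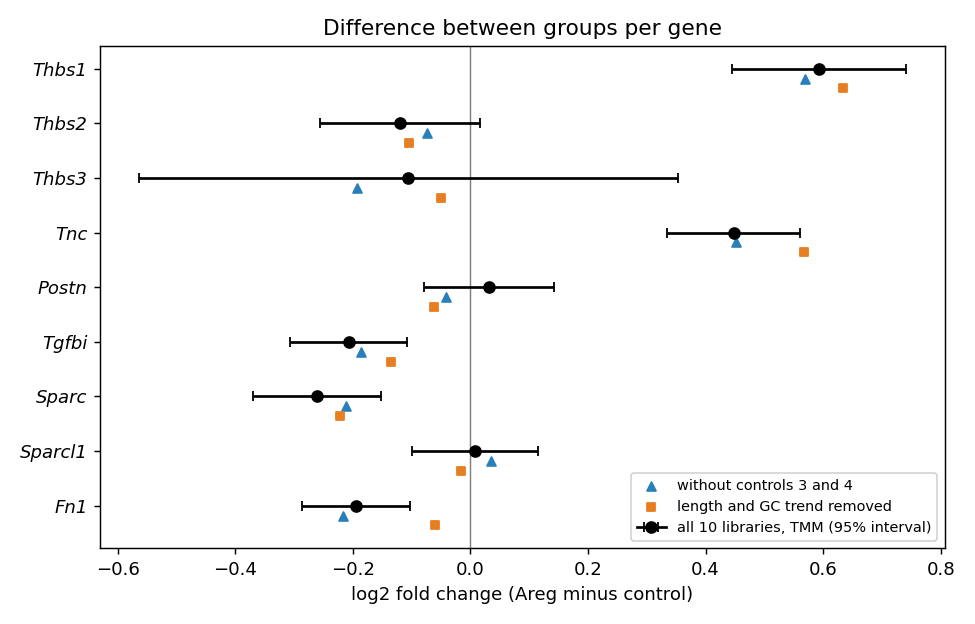
Log2 fold change (Areg minus control, horizontal axis) of the 9 genes (vertical axis) with its 95% interval from edgeR in black, and the same value without controls 3 and 4 (triangles) and with a trend in length and GC content removed from each library (squares). Thbs1 and Tnc lie to the right of 0 in the 3 versions drawn, at 0.59 and 0.45 with all libraries, and the square of Fn1 moves to -0.06.

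Per length, these genes spanned a wide range. In TPM, which scales for transcript length, Tnc was the most abundant, with 727 ± 21.5 in Areg libraries and 546 ± 53.2 in controls (SD, n = 5 each, as for all pairs of means below). Sparc followed with 399 ± 14.9 and 493 ± 25.0 TPM, Tgfbi with 290.3 ± 7.44 and 342 ± 26.2 TPM, and Fn1 with 183 ± 6.24 and 218 ± 18.1 TPM, Areg first in each pair. Thbs1 had 280.1 ± 22.8 TPM with Areg and 189.7 ± 24.6 TPM in controls, and Postn 175 ± 6.04 and 175 ± 19.9 TPM. Sparcl1, Thbs2 and Thbs3 were lower, at 49.1 ± 3.12, 7.08 ± 0.359 and 2.36 ± 1.21 TPM with Areg and 47.8 ± 3.06, 7.86 ± 0.496 and 2.93 ± 1.21 TPM in controls.

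The order of the levels differed between the groups in its middle. With Areg it ran Tnc, Sparc, Tgfbi, Thbs1, Fn1, Postn, and Thbs1 lay above Fn1 in 5 of 5 libraries with no overlap, at 1.53 times its mean. Tgfbi and Thbs1 overlapped, as did Fn1 and Postn, each pair with the same order in 3 of 5 Areg libraries. In controls the order was Tnc, Sparc, Tgfbi, Fn1, Thbs1, Postn, and Fn1 lay above Thbs1 in 5 of 5 libraries, at 1.15 times its mean, although their ranges over libraries overlapped. The ranges of Tnc and Sparc and of Thbs1 and Postn also overlapped in controls, with Tnc higher in 4 of 5 and Thbs1 higher in 5 of 5 libraries. The 9 genes together made 2074 to 2168 TPM with Areg and 1911 to 2228 TPM in controls, ranges that overlapped.

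**Figure D2:**
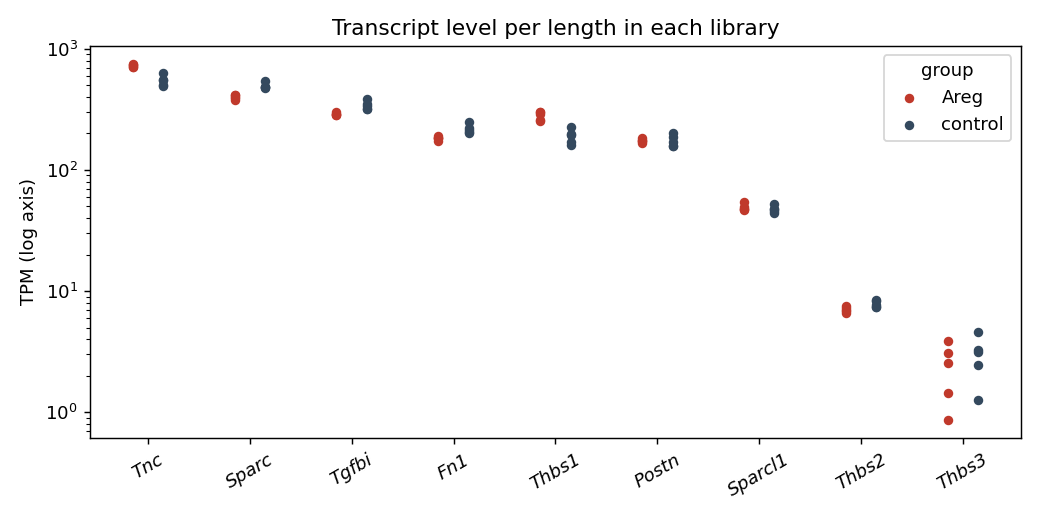
TPM (log axis) of each gene in each library, ordered by the control mean, with Areg libraries in red on the left and controls in dark blue on the right. Tnc is the highest gene in both groups by mean, and the Areg points of Thbs1 lie above those of Fn1.

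Thrombospondin 1 is a large trimeric glycoprotein that inhibits angiogenesis, binds CD36 and CD47 and activates latent transforming growth factor beta. Its gene (ENSMUSG00000040152.8, chromosome 2, 118111876 to 118127133, plus strand, GRCm38) had 889, 1038, 1049, 1073 and 921 CPM (TMM-scaled, counts relative to library size) in Areg libraries 1 to 5, against 734, 681, 586, 695 and 598 CPM in controls 1 to 5. Every Areg library lay above every control, and Areg 1 and 5 were the lowest of their group. Thbs1 rose with a log2 fold change of 0.59 (SE 0.07, 95% interval 0.45 to 0.74, edgeR adjusted p = 6.09e-05), on 5834 to 20813 estimated counts per library. Nearly all of it was the coding form Thbs1-201, with 99.7% of the gene's TPM with Areg and 99.8% in controls.

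The other thrombospondin genes were scarce. Thbs2, whose product shares the trimeric build but lacks the sequence that activates transforming growth factor beta, had 23.6, 27.4, 24.9, 26.3 and 24.8 CPM with Areg, against 28.0, 25.9, 30.3, 27.7 and 26.3 CPM in controls. The groups overlapped, and the log2 fold change was -0.12 (95% interval -0.26 to 0.02, edgeR adjusted p = 0.213). Thbs3, which encodes a pentameric thrombospondin, had 1.15 to 2.02 CPM with Areg and 1.41 to 2.03 CPM in controls on 14 to 40 estimated counts, and its interval ran from -0.56 to 0.35 on the log2 scale. By mean, its TPM rests largely on short forms, but the mix varied widely between libraries. Thbs3-205 (455 bases) averaged 0.730 TPM with Areg and 0.991 TPM in controls, with 0 to 52.9% of Thbs3 TPM in single libraries. Thbs3-201 (3190 bases) averaged 0.477 and 0.439 TPM, with 0% of Thbs3 TPM in control 2 and 86.6% in Areg 1. In TPM, Thbs1 was 37.5 to 42.6 times Thbs2 with Areg and 19.5 to 26.5 times in controls, and it made 96.2 to 97.2% and 93.3 to 95.6% of the TPM of the 3 thrombospondin genes, Areg first.

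**Figure D3:**
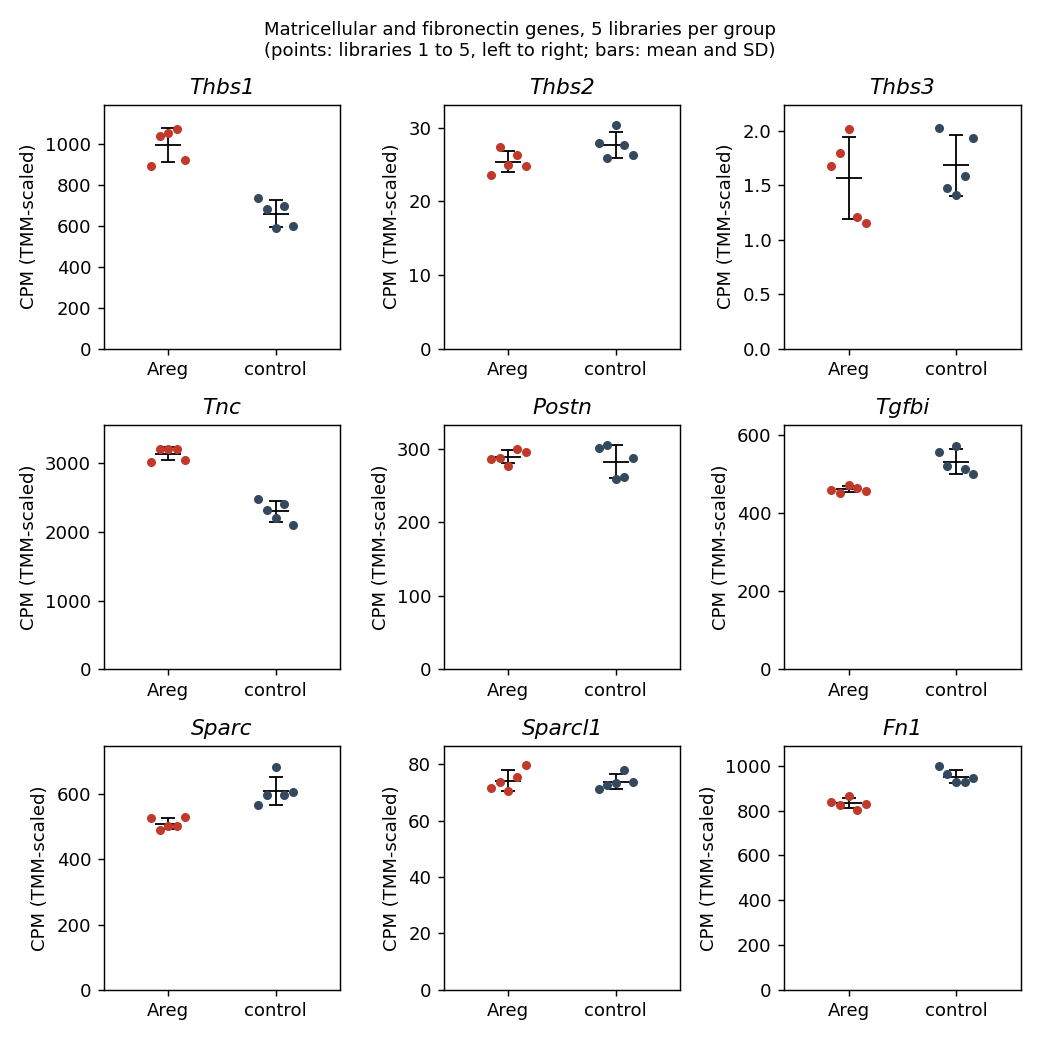
TMM-scaled CPM of the 9 genes, one panel each with an axis from 0, Areg (red) left of control (dark blue). Points are libraries and bars the mean and SD (n = 5). The groups are separate for Thbs1, Tnc, Tgfbi, Sparc and Fn1, and overlap for Thbs2, Thbs3, Postn and Sparcl1.

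Tenascin C is a hexameric glycoprotein of embryonic and healing tissue that is made by activated stellate cells and carries a row of fibronectin type III repeats. Tnc (ENSMUSG00000028364.15, chromosome 4, 63959785 to 64047015, minus strand) had 3028, 3212, 3208.5, 3211 and 3043 CPM in Areg libraries 1 to 5, against 2483, 2315, 2201, 2414 and 2098 CPM in controls 1 to 5. The lowest Areg library lay above the highest control, which was control 1. Tnc rose with a log2 fold change of 0.45 (SE 0.05, 95% interval 0.34 to 0.56, edgeR adjusted p = 6.18e-05). Without controls 3 and 4 the value was 0.45, and that of Thbs1 was 0.57.

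Of the 4 annotated Tnc transcripts, 3 full-length coding forms held 99.9% or more of the TPM in each library. Tnc-204 begins at the 5′ end of the gene, at position 64047015, while Tnc-201 and Tnc-203 begin 26290 bases downstream, at 64020725. Of these 3, only Tnc-203 contains the exon chr4:63984460-63984732 (GRCm38, minus strand, 273 bases), which encodes one of the alternatively used type III repeats. Its sequence in Tnc-203 (GENCODE M21) is shown because the level of this form was higher with Areg; capitals mark the exon and the 12 lower-case bases on each side belong to the neighbouring exons.
Tnc alternative exon: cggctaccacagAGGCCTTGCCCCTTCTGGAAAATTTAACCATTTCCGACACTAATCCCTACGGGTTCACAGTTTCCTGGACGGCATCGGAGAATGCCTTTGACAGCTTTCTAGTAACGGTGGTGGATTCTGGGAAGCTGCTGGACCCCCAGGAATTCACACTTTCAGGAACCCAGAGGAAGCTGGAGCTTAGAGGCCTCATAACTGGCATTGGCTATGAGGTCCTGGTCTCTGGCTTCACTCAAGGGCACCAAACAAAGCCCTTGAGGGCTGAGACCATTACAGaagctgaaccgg

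At the level of transcripts, where kallisto divides reads between forms that share most of their sequence, 0.775% of the 36269 tested transcripts were called (0.474% higher and 0.301% lower with Areg). Of the 12 Fn1 and 3 Tnc forms tested, 2 were called, both of Tnc and both higher. Tnc-204, the main form, had 549.7, 572, 596, 555 and 484 TPM with Areg, against 476, 456, 323, 358 and 369 TPM in controls. Its groups did not overlap, although control 1 came within a short distance of Areg 5. The share of all tested transcripts without overlap in TPM was not counted. The log2 fold change of its counts was 0.51 (SE 0.09, edgeR adjusted p = 0.0345), and 12 of 16 alternatives ended this call (log2 fold change 0.41 to 0.55 and adjusted p 0.0574 to 0.119 there), among them leaving out any Areg library or control 3, 4 or 5.

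Tnc-203, with the alternative repeat, had 67.5, 70.3, 70.2, 57.4 and 60.6 TPM with Areg, against 53.2, 44.8, 35.9, 37.9 and 42.9 TPM in controls. All Areg libraries were above all controls, and the log2 fold change of its counts was 0.64 (SE 0.08, edgeR adjusted p = 0.0139). Its call ended under 3 of 16 alternatives, among them without Areg 2 (edgeR adjusted p = 0.0555). Tnc-201 had 111 ± 32.8 TPM with Areg and 106 ± 45.4 TPM in controls, with single libraries from 50.4 to 162 TPM, and did not pass (edgeR log2 fold change 0.08, SE 0.32, adjusted p = 0.960).

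Tnc-204 held 75.7 ± 4.31% of Tnc TPM with Areg and 72.5 ± 8.03% in controls, Tnc-201 held 15.3 ± 4.78% and 19.6 ± 8.73%, and Tnc-203 held 8.97 ± 0.776% and 7.86 ± 0.843%. The exact permutation test of the Tnc-203 share gave p = 0.0714, and 0.524 after adjustment over the 12 Fn1 and Tnc forms with at least 1% of their gene's TPM. With 5 against 5 libraries, a single form's share alone cannot go below an adjusted p of 0.0952, so these tests do not show whether one form's share differed. Without controls 3 and 4 the differences (Areg minus control) of the Tnc-204 and Tnc-201 shares changed sign, to -2.20 and 1.73 percentage points.

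The promoter window of the 5′ start of Tnc, where Tnc-204 begins, is shown because most of the gene's TPM belongs to that form. The RefSeq table (GRCm38.p6) gives windows of 250 bases before to 50 bases after a start, and the part before the start, chr4:64047016-64047265 on the minus strand, reads as follows, with motif matches in capitals.
Tnc promoter: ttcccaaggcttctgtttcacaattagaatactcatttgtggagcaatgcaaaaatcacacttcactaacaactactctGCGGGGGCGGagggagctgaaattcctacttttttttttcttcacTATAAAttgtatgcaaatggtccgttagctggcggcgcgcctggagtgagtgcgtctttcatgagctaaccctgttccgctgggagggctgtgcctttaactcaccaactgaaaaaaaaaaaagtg
The capitals are an Egr motif (GCGNGGGCG, from base -171) that overlaps a GC box (GGGCGG, from base -167), and a TATA motif (TATAAA, from base -126), counted from the start site with both strands searched. RefSeq also gives a Tnc start at 64046936, from which the same matches begin at bases -250, -246 and -205. Among 32851 promoter windows of the same length, 5.55% hold the Egr motif, 35.7% the GC box and 13.6% the TATA motif. The AP-1 motif TGANTCA (7.81% of windows), the TEAD motif GGAATG (14.7%) and the CArG box of serum response factor (1.63%) had no match in this window, nor in any of the 8 windows found for 6 of the 9 genes. Thbs1, Fn1 and Sparcl1 had no window and were not searched. The Egr motif was in 3 of the 8 windows, those of Tnc and that of Tgfbi, which fell with Areg. These matches describe letters in the windows.

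Periostin and the product of Tgfbi are relatives built from fasciclin domains that bind integrins and collagen. Postn (chromosome 3, 54361109 to 54391037, plus strand) had 286, 288, 277, 299.5 and 295 CPM with Areg, against 301, 305, 258, 261 and 288 CPM in controls. The groups overlapped, with controls 3 and 4 lowest, and the log2 fold change was 0.03 (95% interval -0.08 to 0.14, edgeR adjusted p = 0.719). It was -0.04 without controls 3 and 4.

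Tgfbi (chromosome 13, 56609523 to 56639562, plus strand), which macrophages also express, had 458, 451, 472, 463 and 456 CPM with Areg, against 556, 518, 571, 511 and 498 CPM in controls. The Areg libraries lay close together and below all controls. Tgfbi fell with a log2 fold change of -0.21 (SE 0.05, 95% interval -0.31 to -0.11, edgeR adjusted p = 0.00716). With a trend in length and GC content removed it was -0.14 and stayed called (edgeR adjusted p = 0.0134). None of the 8 macrophage markers was called in either direction, where 16.7% of all tested genes were called. The macrophage markers summed to 534 to 591 TPM with Areg and 558 to 610 TPM in controls, with overlap. The part of macrophage RNA in the Tgfbi value was not tested.

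Sparc encodes a calcium- and collagen-binding glycoprotein that stellate and endothelial cells secrete and that affects how collagen fibrils form. Sparc (chromosome 11, 55394500 to 55423183, minus strand) had 528, 489.7, 502, 502 and 529 CPM with Areg, against 569, 599, 684, 598 and 608 CPM in controls. No Areg library reached the lowest control, and control 3 was the highest of all. Sparc fell with a log2 fold change of -0.26 (SE 0.05, 95% interval -0.37 to -0.15, edgeR adjusted p = 0.00286), and of -0.21 without controls 3 and 4. Sparcl1, whose product is also called hevin, had 71.5, 73.9, 70.6, 75.5 and 79.7 CPM with Areg and 71.3, 72.7, 73.5, 78.2 and 73.9 CPM in controls. Its groups overlapped, with a log2 fold change of 0.01 (95% interval -0.10 to 0.11, edgeR adjusted p = 0.946).

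A pair of forms shared most of the Sparc TPM. Sparc-202 held 42.9% with Areg and 50.5% in controls, and Sparc-201 held 56.2% and 48.2%. The control mean hides a split, since Sparc-202 held 62.2 and 61.3% in controls 3 and 4 and 40.2 to 47.6% in the other controls, where the Areg libraries lay at 40.9 to 45.3%. The form mix of Sparc thus followed the controls that stood apart, and no test of it was made.

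Fibronectin is a dimer of type I, II and III repeats that cells assemble into fibrils through the alpha5beta1 integrin. Fn1 (ENSMUSG00000026193.15, chromosome 1, 71585520 to 71653200, minus strand) had 837, 827, 865, 803 and 829 CPM in Areg libraries 1 to 5, against 998, 963, 929, 926 and 944 CPM in controls 1 to 5. The groups were separate, with Areg 3 nearest to the lowest control. Fn1 fell with a log2 fold change of -0.19 (SE 0.04, 95% interval -0.29 to -0.10, edgeR adjusted p = 0.00645). This call ended when a trend in gene length and GC content was removed from each library (log2 fold change -0.06, edgeR adjusted p = 0.289), the one alternative that ended a gene's call, alone and without controls 3 and 4.

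Plasma fibronectin from hepatocytes lacks the 2 extra type III domains, A and B, while the cellular fibronectin of mesenchymal cells can carry them, and fibronectin with extra domain A is a mark of wound repair and fibrosis. The exons of both domains and the first part of the variable region, which holds a binding site of the alpha4beta1 integrin, are shown because forms were told apart by them. They lie on the minus strand of GRCm38 at chr1:71603660-71603929 (270 bases, extra domain A), chr1:71613763-71614035 (273 bases, extra domain B) and chr1:71597673-71597747 (75 bases, variable region). Capitals mark the exon or segment within the GENCODE M21 transcript, with 12 bases of neighbouring sequence on each side.
Fn1 extra domain A exon: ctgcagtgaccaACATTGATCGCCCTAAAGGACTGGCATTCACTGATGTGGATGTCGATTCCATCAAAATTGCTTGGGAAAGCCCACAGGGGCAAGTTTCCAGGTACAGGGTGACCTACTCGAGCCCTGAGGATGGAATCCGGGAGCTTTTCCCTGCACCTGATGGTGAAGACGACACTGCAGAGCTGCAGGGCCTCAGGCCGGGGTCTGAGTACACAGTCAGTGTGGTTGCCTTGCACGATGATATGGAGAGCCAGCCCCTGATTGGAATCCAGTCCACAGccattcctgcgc
Fn1 extra domain B exon: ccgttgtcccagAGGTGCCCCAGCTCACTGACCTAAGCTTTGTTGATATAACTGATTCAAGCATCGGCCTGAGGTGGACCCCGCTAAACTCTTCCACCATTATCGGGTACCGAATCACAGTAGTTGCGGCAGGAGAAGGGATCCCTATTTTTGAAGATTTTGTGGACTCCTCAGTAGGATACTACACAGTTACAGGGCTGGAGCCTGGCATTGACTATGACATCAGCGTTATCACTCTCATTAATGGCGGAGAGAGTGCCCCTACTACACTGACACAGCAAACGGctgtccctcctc
Fn1 variable region, first part: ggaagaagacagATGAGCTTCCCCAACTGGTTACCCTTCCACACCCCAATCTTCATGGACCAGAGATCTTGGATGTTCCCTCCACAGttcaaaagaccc

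Of 17 annotated Fn1 transcripts, 7 are full-length coding forms, and they held 88.8 to 93.2% of the gene's TPM. Extra domain A is in 4 of them and extra domain B in 1, Fn1-201. The leading forms were Fn1-214, which includes domain A, at 67.3 ± 6.60 TPM with Areg and 87.4 ± 8.30 TPM in controls, and Fn1-203, which lacks both, at 65.8 ± 7.68 and 67.6 ± 13.0 TPM. Fn1-217, Fn1-216 and Fn1-201 had 17.8, 10.8 and 4.84 TPM with Areg and 19.9, 11.5 and 6.70 TPM in controls. The remaining named transcripts, Fn1-202, Fn1-204, Fn1-212 and Fn1-215, are annotated as retained introns and held 1.27 to 2.13% of Fn1 TPM with Areg and 1.67 to 2.96% in controls.

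None of the 12 tested Fn1 forms was called by edgeR on transcript counts. The lowest p among the named forms was that of Fn1-214, which had 68.3, 76.4, 70.2, 61.6 and 60.2 TPM with Areg, against 95.2, 81.8, 97.5, 83.2 and 79.5 TPM in controls. Its groups did not overlap, with a log2 fold change of -0.35 (SE 0.08, edgeR unadjusted p = 0.00185, adjusted p = 0.1001). How common such separation was among all tested transcripts was not counted. Fn1-203 overlapped between the groups and differed by -0.00 on the log2 scale (SE 0.11, edgeR adjusted p = 0.995). No Fn1 share passed, and a single share alone could not. Fn1-214 was at 36.7 ± 3.09% of Fn1 TPM with Areg and 40.2 ± 4.18% in controls, and Fn1-203 at 35.9 ± 3.96% and 30.8 ± 4.20% (exact permutation p = 0.159 and 0.0873, adjusted p = 0.545 and 0.524).

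**Figure D4:**
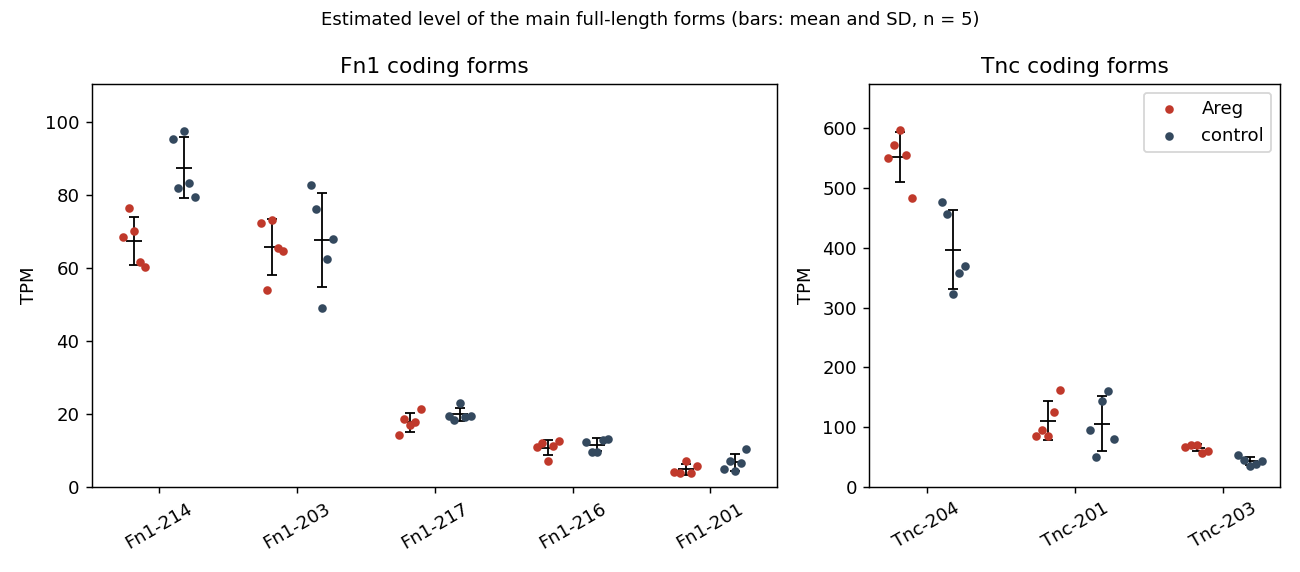
TPM of the main full-length coding forms of Fn1 (left) and Tnc (right), Areg (red) left of control (dark blue) within each form. Points are libraries and bars the mean and SD (n = 5). The groups are separate for Fn1-214, Tnc-204 and Tnc-203, of which Fn1-214 was not called.

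Summed over forms, extra domain A was in 43.0, 49.2, 45.6, 41.7 and 41.8% of full-length Fn1 TPM in Areg libraries 1 to 5, against 48.0, 48.2, 55.6, 49.2 and 47.8% in controls 1 to 5. Areg 2 lay among the controls, and control 3 lay well above the other controls. The means were 44.3 ± 3.19% with Areg and 49.7 ± 3.31% in controls, a difference of -5.45 percentage points (Areg minus control, two-sided exact permutation p = 0.0397, and 0.107 after adjustment over the 3 exons tested). Without Areg 2 the difference was -6.68 points and passed (exact permutation, adjusted p = 0.0238). Without control 3 it was -3.98 points (adjusted p = 0.179), and without controls 3 and 4 it was -3.69 points (adjusted p = 0.321).

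In absolute level, forms with extra domain A had 73.5, 82.0, 81.5, 67.6 and 70.6 TPM with Areg, against 105.6, 97.1, 102, 91.3 and 92.0 TPM in controls, with no overlap. Forms without it had 97.3, 84.6, 97.1, 94.4 and 98.3 TPM with Areg, against 114, 104, 81.8, 94.4 and 101 TPM in controls, with overlap. The TPM of the whole Fn1 gene also did not overlap between the groups. These sums are described and were not tested, and no trend in length and GC content was removed from them. Hepatocytes make fibronectin without domain A, and the 8 hepatocyte markers summed to 1438 ± 127 TPM with Areg and 1418 ± 249 TPM in controls (SD, n = 5 each). Of these markers 1 was called higher and 0 lower, where 16.7% of all tested genes were called in either direction. The part of hepatocyte RNA in the Fn1 forms was not tested.

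Extra domain B was rare, in 2.84 ± 0.781% of full-length Fn1 TPM with Areg and 3.43 ± 1.24% in controls (exact permutation p = 0.429). The Tnc alternative exon was in 8.97 ± 0.776% of full-length Tnc TPM with Areg and 7.86 ± 0.846% in controls (exact permutation p = 0.0714, adjusted p = 0.107). The variable region of Fn1 begins at 3 alternative positions. The longest version, which alone holds the segment printed above, made 81.4 ± 3.01% of full-length TPM with Areg and 82.2 ± 0.530% in controls.

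**Figure D5:**
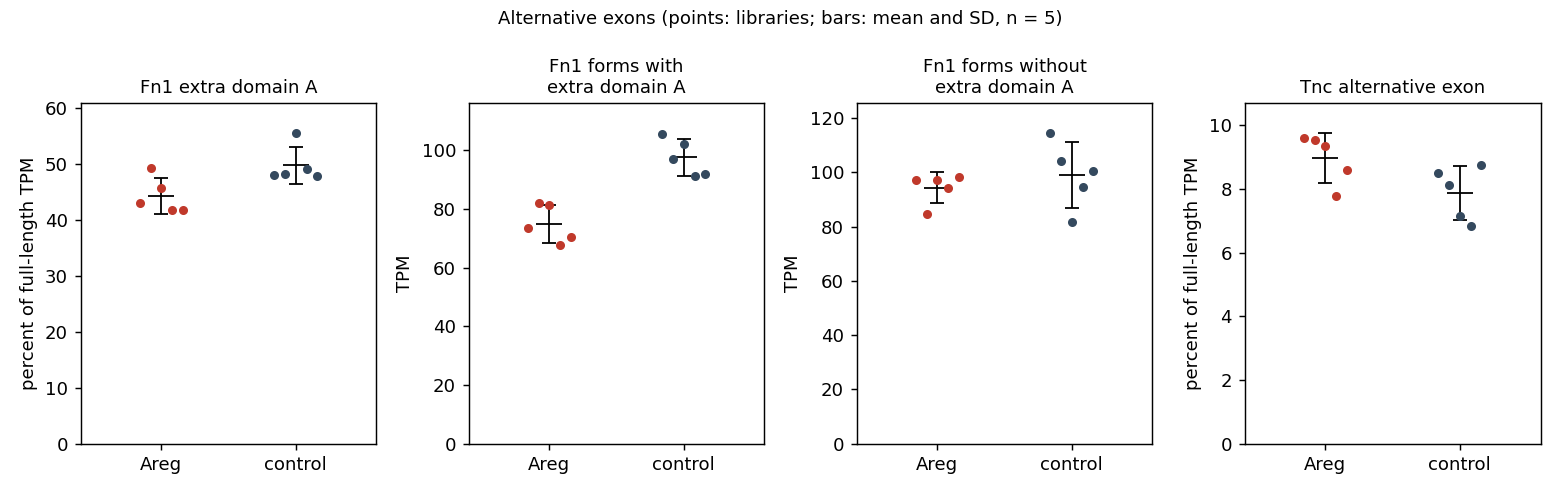
Share of full-length TPM with extra domain A of Fn1 (first panel) and with the alternative exon of Tnc (last panel), and TPM of Fn1 forms with and without extra domain A (middle panels), Areg (red) left of control (dark blue). Points are libraries and bars the mean and SD (n = 5). The TPM of forms with extra domain A are separate between the groups, and the other panels overlap.

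Of 9 listed splicing factors reported to act on the extra domain exons, 8 were tested, 3 rose, 0 fell and 5 did not pass, with a median log2 fold change of 0.07 against -0.01 over all genes. The share called was 37.5%, against 16.7% of all 13362 tested genes, of which 8.34% were called higher and 8.32% lower. For this list and the 3 that follow, the difference from all genes was not tested. The listed genes are given from the fit with all libraries only. Their values with a trend in length and GC content removed are not given. Srsf5 had 608 ± 16.4 CPM with Areg and 526 ± 59.5 CPM in controls (log2 fold change 0.21), Srsf1 had 194 ± 4.99 and 169 ± 15.4 CPM (0.19), and Srsf3 had 227 ± 5.31 and 202 ± 9.54 CPM (0.17), with edgeR adjusted p of 0.0361, 0.0265 and 0.0159. These serine- and arginine-rich proteins bind exonic splicing enhancers. Srsf6 had a log2 fold change of 0.13 and missed the threshold (edgeR adjusted p = 0.0510).

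Among other matricellular genes, 11 of 19 listed were tested, 3 rose, 1 fell and 7 did not pass, with a median log2 fold change of 0.07. The share called was 36.4%. Ccn2, the connective tissue growth factor gene, had 366 ± 62.5 CPM with Areg and 182 ± 29.7 CPM in controls (log2 fold change 1.00, edgeR adjusted p = 0.00147). Ccn1, its relative, had 232 ± 22.8 and 145 ± 18.5 CPM (0.68, edgeR adjusted p = 0.000152), and the osteopontin gene Spp1 had 81.9 ± 5.63 and 39.7 ± 3.45 CPM (1.05, edgeR adjusted p = 5.00e-08). Tnxb, the gene of another tenascin that is tied to collagen fibrils, fell to 135 ± 7.93 CPM with Areg, against 185 ± 13.3 CPM in controls (-0.45, edgeR adjusted p = 8.41e-05). The tenascin genes Tnc and Tnxb thus moved in opposite directions.

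Of 20 listed receptors for these proteins, 19 were tested, 2 rose, 3 fell and 14 did not pass, with a median log2 fold change of 0.03. The share called was 26.3%. Lrp1, the scavenger receptor that takes up thrombospondins, fell to 677 ± 38.4 CPM with Areg, against 893 ± 73.9 CPM in controls (log2 fold change -0.40, edgeR adjusted p = 0.000394). Stab1, a receptor that clears the Sparc protein and is made by endothelial cells and macrophages, fell to 691 ± 36.4 CPM, against 847 ± 62.7 CPM in controls (-0.29, edgeR adjusted p = 0.00236). None of the 8 sinusoidal endothelial markers was called, where 16.7% of all tested genes were. Itgb5, an integrin subunit that pairs with alpha v, had a log2 fold change of -0.29 (edgeR adjusted p = 0.00448). Sdc4, a heparan sulfate proteoglycan that binds fibronectin together with alpha5beta1, rose to 111 ± 5.38 CPM with Areg, against 91.2 ± 1.53 CPM in controls (0.29, edgeR adjusted p = 0.000787). The beta3 integrin gene Itgb3 also rose, at 118 ± 3.49 CPM with Areg and 101 ± 9.06 CPM in controls, with overlap (0.22, edgeR adjusted p = 0.0137). The alpha5 and beta1 integrin genes Itga5 and Itgb1 had log2 fold changes of 0.15 each and did not pass (edgeR adjusted p = 0.0534 and 0.0886).

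Of 18 listed genes of fibronectin fibril assembly and its partners, 16 were tested, 1 rose, 5 fell and 10 did not pass, with a median log2 fold change of -0.12. The share called was 37.5%. Tns1, the tensin of fibrillar adhesions, had 244 ± 8.45 CPM with Areg and 302 ± 26.3 CPM in controls (log2 fold change -0.31, edgeR adjusted p = 0.00147). The latent transforming growth factor beta binding protein genes Ltbp4 and Ltbp1, whose products are laid down on fibronectin and fibrillin fibrils, had log2 fold changes of -0.32 and -0.25 (edgeR adjusted p = 0.00338 and 0.00616). Fermt2, the integrin activator kindlin 2, rose to 415 ± 16.2 CPM, against 351 ± 23.0 CPM in controls (0.24, edgeR adjusted p = 0.00464). Bmp1 and Pcolce, a procollagen protease and its enhancer, also fell, while the transglutaminase gene Tgm2 had a log2 fold change of 0.04.

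The summed level of the 12 stellate cell markers was lower with Areg, mainly through Ecm1. It was 4752 to 4960 TPM with Areg and 5303 to 6166 TPM in controls (exact permutation p = 0.00794, the smallest that 5 against 5 libraries allow, adjusted p = 0.0265), and Ecm1 alone had 3568 and 4412 TPM. The groups did not overlap, and the adjusted p became 0.0529 without Areg 1, 2, 3 or 5 in turn (exact permutation p = 0.0159). Of the 12 markers, 0 rose, 4 fell and 8 did not pass, where 8.34% of all tested genes were called higher and 8.32% lower. Only Rgs5 (343 TPM with Areg and 334 TPM in controls) and Hgf (303 and 286 TPM) had a higher mean with Areg, and neither passed. The other markers had a lower mean with Areg, among them Reln (355 and 404 TPM), Lrat (9.99 and 14.1 TPM), Lhx2 (13.7 and 17.5 TPM) and Ngfr (19.7 and 25.4 TPM). They are named by their means, and which of these markers were called is not given. The smooth muscle markers summed to 104.2 to 112 TPM with Areg and 90.3 to 103.5 TPM in controls, mainly through Smtn. The biliary list summed to 102 to 119 and 48.5 to 58.8 TPM. Spp1 made 106 and 52.0 TPM of it, while Epcam averaged 0.270 and 0.719 TPM. Neither list overlapped between the groups (exact permutation p = 0.00794 and adjusted p = 0.0265 for each). Their adjusted p also became 0.0529 without Areg 1, 2, 3 or 5 in turn. The part of a shift in cell content or stellate cell state in the values of Sparc, Tgfbi and Fn1 was not tested.

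The genes whose profile over the 10 libraries was most like that of 4 members were ranked by the root mean square difference of log2(CPM + 1), each profile centred on its control mean, among 12175 genes. For Thbs1 they were Mical2 (0.0598), Ptgs2 (0.0627) and Tifa (0.0823), and for Tnc they were Akap12 (0.0477), Fam84a (0.0508) and Kcnj2 (0.0594). For Fn1 they were Nrp1 (0.0337), Aldh3a2 (0.0377) and Sash1 (0.0385), and for Sparc they were Ctsd (0.0289), Abhd4 (0.0322) and Eepd1 (0.0334). Ptgs2, the inducible cyclooxygenase, had 344 ± 15.3 CPM with Areg and 229.6 ± 18.9 CPM in controls, a log2 fold change of 0.58 beside 0.59 for Thbs1. Ctsd, the lysosomal protease cathepsin D, had 1166 ± 43.6 and 1386 ± 86.7 CPM, a log2 fold change of -0.25 beside -0.26 for Sparc. Such closeness follows from the ranking, which used the same 10 libraries.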

How the data were processed

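Poly-A RNA of 5 Areg and 5 control libraries was measured, and groups were taken from the labels. The deposited files hold estimated counts (kallisto's expected counts) per transcript, and TPM, which the authors' kallisto run scaled to length and to one total per library. Per the submitters' processing notes, the tools include bcl2fastq 2.19, kallisto 0.44.0 and DESeq2 and the build is GRCm38.p6, without saying what each was used for. Which transcripts were indexed and whether strand was used is not given in the sources used here. Reads shared by forms, paralogs, overlapping or antisense genes are divided by estimation, so form levels carry an assignment error that the tests do not include.

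Transcripts were joined to GENCODE M21; 116816 of 118489 matched, and the 1673 others held 0.736 to 0.778% of counts and were left out. Counts were summed per gene, rounded to whole numbers and tested with edgeR 4.0.16 (R 4.3.3; quasi-likelihood, robust, TMM, filterByExpr with minimum count 10 and total 15, Benjamini-Hochberg over all 13362 genes, threshold 0.05). The same test was run on 36269 transcripts. The biological coefficient of variation was 9.37%. Log2 fold changes are Areg minus control. CPM are TMM-scaled, and TPM were summed per gene. Shares and marker sums were tested by exact permutation (two-sided) over 252 arrangements (scipy 1.17.1). Within groups, every pair of libraries differed beyond sampling noise (chi-square divided by its degrees of freedom 3.77 to 49.7), so each was counted once.

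The members and gene lists were chosen with earlier results of these data known. Named were the 9 members, the Fn1 and Tnc forms with at least 1% of their gene's TPM, in each list up to 4 genes of smallest p, and the 3 most similar profiles of 4 members. Itgb3, Itga5, Itgb1, Bmp1, Pcolce and Tgm2 were named after their values were seen. In 5 simulated data sets of 13362 genes, 200 of them changed, the gene test found 41.6% of 1.25-fold changes and 79.2% of 1.5-fold changes, and 4.94% of its calls were false. Of the transcripts changed 2-fold among 36269 simulated for the same comparison, 17% were recovered. The simulated counts were drawn independently, without the shift that controls 3 and 4 share, so these rates may not hold for the real libraries. The alternatives were other normalizations (DESeq2's size factors, upper quartile), filters, DESeq2 1.42.0, limma-voom and limma-trend (limma 3.58.1) on log2 TPM with pseudocounts of 1 and 0.1, length offsets, removal of a trend in length and GC content (mgcv 1.9.3), a replicate block and libraries left out.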

Additional observations from a re-analysis of the deposited data

Results flagged for a closer look

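Of 48 groups of 5 values that were checked for a library far from the rest, 2 held one, and chance flags about 1 in 20 groups. In the control group, extra domain A of Fn1 was in 55.6% of full-length TPM in control 3, against 47.8 to 49.2% in the other controls. Control 3 is one of the controls that stood apart on the first principal component. In the Areg group, Fn1-216 held 3.74% of Fn1 TPM in Areg 3, against 6.01 to 6.85% in the other Areg libraries.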

How the results depend on the processing

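Of the 9 genes, 5 were called under 21 of 23 alternatives and 4 under the others. Removing a trend in length and GC content, with all libraries or, chosen after seeing the data, without controls 3 and 4, ended the call of Fn1 (-0.06 and -0.09, edgeR adjusted p = 0.289 and 0.0783). The log2 fold change ranged from 0.56 to 0.64 for Thbs1, 0.42 to 0.57 for Tnc, -0.30 to -0.19 for Sparc and -0.23 to -0.14 for Tgfbi, and all kept their calls. Deviations from the group mean correlated weakly between Areg and control libraries of the same replicate number (0.0548, 0.0912, -0.0465, 0.144 and 0.00334). These values do not settle whether such libraries were paired, which the labels do not say. The replicate block left 5 genes and 0 forms called. The forms called, 2 in all, were 1 without a filter, 1 without controls 3 and 4, 0 on log2(TPM + 1) and 0 to 2 with a library left out (0 without Areg 2). With a library left out, 0 to 1 exons and 0 to 4 marker and depth measures passed, against 0 and 3 with all. The causes were not tested.

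Signs changed for uncalled values. Sparcl1 had -0.0070 with upper quartile factors, -0.016 with the trend removed and -0.020 to 0.031 with a library left out. Postn had -0.061 with the trend removed, -0.041 without controls 3 and 4 and -0.084 with both. Fn1-203 had 0.018 without a filter, 0.0032 with the replicate block and -0.088 to 0.057 with a library left out, where Fn1-216 ran from -0.13 to 0.055 and Tnc-201 from -0.10 to 0.29. Share differences became 1.73 points (Tnc-201) and -2.20 points (Tnc-204) without controls 3 and 4, and ran from -0.0020 to 0.996 points (Fn1-217) with a library left out.

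Over all genes, 2226 were called, but 856 and 868 on log2(TPM + 1) and log2(TPM + 0.1), 1149 with a length offset, and 1364 without Areg 2. Removing the trend gave 1131 higher and 701 lower calls and log2(TPM + 1) gave 322 and 534, against 1114 and 1112.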
